A study of Homo sapiens with 6 samples.

Results

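Hepatocyte growth factor (HGF), 5 fibroblast growth factors (FGF1, FGF2, FGF5, FGF7 and FGF10) and 4 of the receptors for these ligands (MET, FGFR1, FGFR2 and FGFR3) were followed in IMR90 cells, a primary line of human lung fibroblasts, after exposure to oncostatin M. The 10 genes were chosen by name as paracrine growth factors and their receptors, and each was read from its 1 probe set on the array that carried that gene symbol alone. They are 10 of the 18417 genes tested. Oncostatin M belongs to the interleukin-6 family of cytokines and acts mainly through JAK kinases and the transcription factor STAT3. The 3 oncostatin M samples received a single dose of 10 ng/mL of the recombinant human protein, and the 3 control samples were untreated cells of the same line. Total RNA of each sample was hybridised to 1 gene-level Affymetrix array. The duration of the treatment and the number of cultures are not given in the sources used here, so the p-values reflect the spread among these samples alone, and that spread may be technical. The cells were a single line grown alone, without the epithelium on which several of these factors act in the lung.

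HGF is secreted by mesenchymal cells as an inactive precursor, is cleaved outside the cell and acts through the receptor tyrosine kinase MET, which in the lung is best known from epithelium. FGFs are secreted ligands that are held by heparan sulfate at the cell surface and bring together pairs of FGF receptors, which then activate the RAS and ERK kinase cascade and, with it, feedback inhibitors of the Sprouty and DUSP families. FGF7 and FGF10 are mesenchymal ligands that bind an epithelial splice form of FGFR2, and FGF10 drives branching of the embryonic lung.

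HGF rose to 2.00-fold the control level after oncostatin M, while MET and FGF1 fell 1.81-fold and 1.86-fold. At an adjusted p under 0.05 (limma, Benjamini-Hochberg over 18417 genes), 1 of the 10 genes was higher and 2 were lower, against 1.72% higher, 1.7% lower and 3.42% in either direction of all genes tested. The 10 genes were chosen with earlier results of these data known, so these counts do not test for an excess. FGFR1 lay lower on all 3 treated arrays without passing that threshold, and FGF2, FGF5, FGF7, FGF10, FGFR2 and FGFR3 had groups that overlapped. The groups did not overlap for 4 of the 10 genes, 1 higher and 3 lower, against 18.0% of all genes. The median difference of the 10 genes was 0.013 and that of all genes 0.00057 on the log2 scale. Of the 10, 5 differed upward and 5 downward, and 7 did not pass the threshold. RNA was measured over whole cultures, so fewer cells that express a gene and less of its RNA per cell cannot be told apart.

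The start regions of the 3 genes that passed are shown to place them in the genome and to give the letters in which motifs were sought. Each window is of RefSeq, build GRCh38.p14, and runs from 250 bases before to 50 bases after an annotated transcript start. HGF and MET had 1 such window each, both on chromosome 7. FGF1, on chromosome 5, had 4, of which the one holding a match is printed. Capitals mark the match, and all other letters are in lower case.
HGF, chr7:81769998-81770297, minus strand: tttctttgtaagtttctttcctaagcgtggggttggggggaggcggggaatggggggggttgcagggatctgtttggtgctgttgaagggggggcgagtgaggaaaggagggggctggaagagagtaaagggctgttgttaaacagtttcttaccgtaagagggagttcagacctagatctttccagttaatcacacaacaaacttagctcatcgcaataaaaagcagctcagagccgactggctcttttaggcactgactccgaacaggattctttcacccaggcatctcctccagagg
MET, chr7:116671946-116672245, plus strand: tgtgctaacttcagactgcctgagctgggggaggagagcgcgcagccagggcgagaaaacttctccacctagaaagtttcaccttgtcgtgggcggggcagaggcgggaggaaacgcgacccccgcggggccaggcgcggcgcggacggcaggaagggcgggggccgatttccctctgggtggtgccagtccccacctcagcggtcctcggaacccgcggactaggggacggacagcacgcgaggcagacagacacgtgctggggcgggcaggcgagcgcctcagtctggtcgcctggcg
FGF1, chr5:142644190-142644489, minus strand: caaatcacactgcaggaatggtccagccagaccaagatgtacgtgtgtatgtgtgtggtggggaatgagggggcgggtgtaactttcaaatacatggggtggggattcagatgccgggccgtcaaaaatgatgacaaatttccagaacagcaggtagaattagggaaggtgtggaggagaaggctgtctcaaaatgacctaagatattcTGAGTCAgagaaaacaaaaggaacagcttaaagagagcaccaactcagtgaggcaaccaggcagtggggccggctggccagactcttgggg
Both strands were searched for TTCNNNGAA, the palindrome that STAT factors bind, for TTGCNNAA, a pattern that C/EBP factors bind, and for TGANTCA, the AP-1 site. With a single match in all, no matches overlapped. The 17 windows found for 9 of the 10 genes held no STAT pattern and no C/EBP pattern, and 1 held the AP-1 pattern, the FGF1 window above, with its first base 41 bases before the start (position -41). FGFR1 had no window and was not searched. Some windows of FGF1 and of FGFR2 overlapped, so the 17 are not all separate sequences. Among 35116 windows of the same length, 7.66% held the STAT pattern, 10.5% the C/EBP pattern and 7.71% the AP-1 pattern. A match is a run of letters and was not measured as a bound site in these cells, and the absence of a match covers these windows alone.

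HGF, the ligand of MET, had log2 levels of 11.95, 12.21 and 11.95 on the oncostatin M arrays, against 11.20, 10.99 and 10.92 on the control arrays (probe set 8140556). The lowest treated array thus stood above the highest control array. Group means were 12.04 ± 0.15 after oncostatin M and 11.04 ± 0.15 in control (SD, n = 3 each), a difference of 1.00 with a standard error (SE) of 0.10 and a 95% interval from 0.76 to 1.24 (adjusted p = 0.00179, limma). This was the 71st largest rise among the 18417 genes. The call was kept in each of 6 fits that left out 1 array, with differences from 0.92 to 1.08 and adjusted p up to 0.0164.

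MET, the receptor of HGF, moved the other way. Its levels were 8.46, 8.94 and 8.99 after oncostatin M, against 9.57, 9.70 and 9.68 in control (probe set 8135601). All treated arrays lay below all control arrays, and oncostatin M 1 lay well below the other treated arrays. The means were 8.80 ± 0.29 after oncostatin M and 9.65 ± 0.07 in control (SD, n = 3 each), and the difference was -0.86 (SE 0.14, 95% interval from -1.17 to -0.54, adjusted p = 0.0130, limma). MET ranked 55th among the falls. Without oncostatin M 1 the difference was -0.69, with a smaller SE of 0.075 and an adjusted p of 0.00143. MET no longer passed when any 1 of the controls was left out, with adjusted p of 0.0715 for control 1, 0.0739 for control 2 and 0.0559 for control 3 and differences between -0.90 and -0.83.

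**Figure D1:**
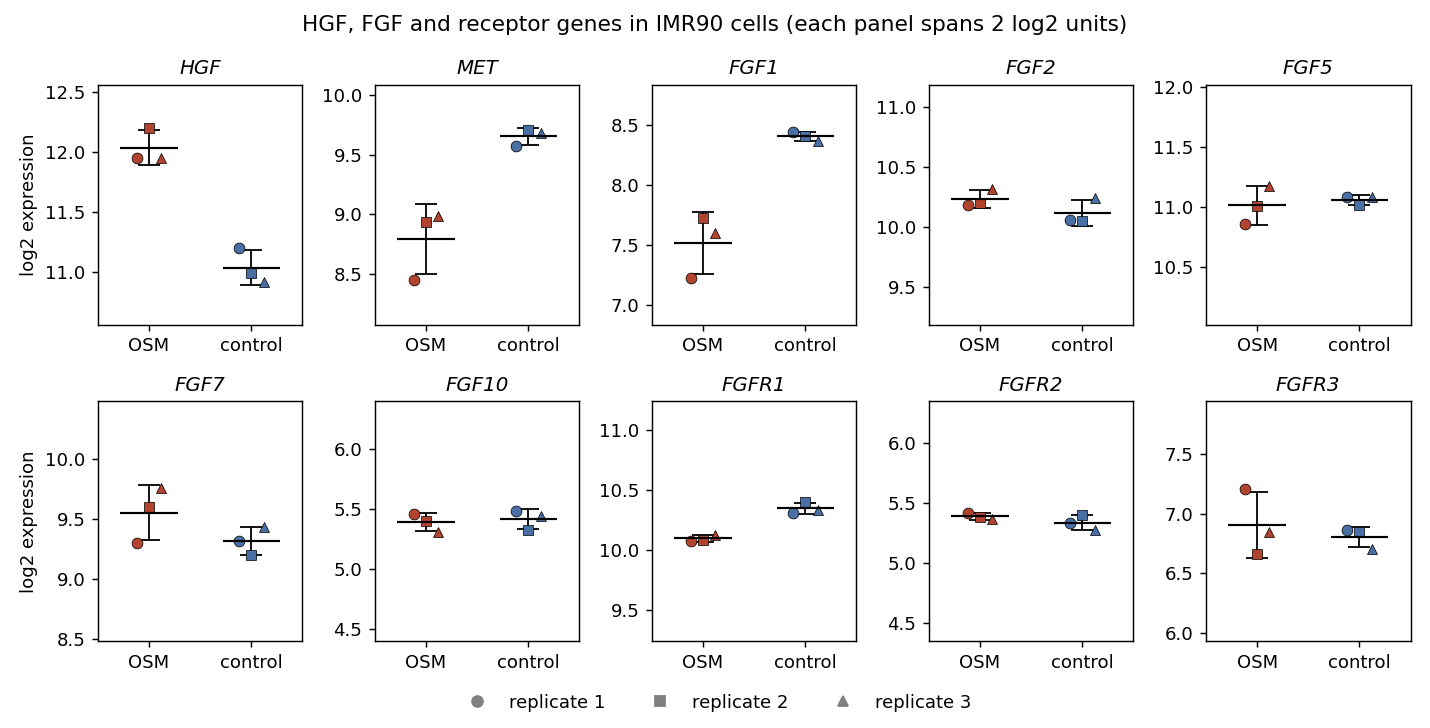
Log2 expression of the 10 genes on each array, oncostatin M (OSM, red) left of control (blue); symbols give the replicate, horizontal lines the group mean and bars ± 1 SD (n = 3 each). Every panel spans the same log2 range, so the separation of the groups for HGF, MET and FGF1 can be read against the overlap in FGF2, FGF5, FGF7, FGF10, FGFR2 and FGFR3.

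FGF1, acidic FGF, binds all of the signalling FGF receptors and lacks a classical signal peptide. It had 7.22, 7.72 and 7.60 after oncostatin M, against 8.44, 8.41 and 8.37 in control (probe set 8114805). The control arrays lay close together and the treated arrays all below them, with oncostatin M 1 again the lowest. Means were 7.51 ± 0.26 after oncostatin M and 8.40 ± 0.04 in control (SD, n = 3 each), a difference of -0.89 (SE 0.12, 95% interval from -1.17 to -0.61, adjusted p = 0.00614, limma), the 49th largest fall. The difference was -0.75 without oncostatin M 1 (adjusted p = 0.000885), and the call was lost without control 1 alone (-0.87, adjusted p = 0.0554).

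FGF2, basic FGF, a mitogen for fibroblasts that is also secreted without a signal peptide, had 10.19, 10.20 and 10.32 after oncostatin M, against 10.06, 10.06 and 10.25 in control (probe set 8097256). The highest control array lay above the 2 lowest treated arrays. The difference was 0.11 (95% interval from -0.08 to 0.30, adjusted p = 0.771, limma).

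FGF5, a secreted FGF known as an inhibitor of hair growth, had 10.86, 11.01 and 11.18 after oncostatin M, against 11.08, 11.02 and 11.08 in control (probe set 8096050). The treated arrays straddled the controls, and the difference was -0.05 (95% interval from -0.26 to 0.17, adjusted p = 0.967, limma). A change of the size seen for FGF1 thus lay outside the interval for FGF5, and also outside that for FGF2.

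FGF7, keratinocyte growth factor, had 9.30, 9.60 and 9.76 after oncostatin M, against 9.31, 9.20 and 9.44 in control (probe set 7983630). Oncostatin M 2 and 3 stood above all controls, and oncostatin M 1 lay within them. The difference was 0.24 (95% interval from -0.05 to 0.52, adjusted p = 0.572, limma), and it was 0.36 without oncostatin M 1 (adjusted p = 0.0752). With array weights, which gave oncostatin M 1 a weight of 0.226, it was 0.38 and passed (adjusted p = 0.0263). FGF7 has near-identical pseudogene copies, so its level is uncertain: 6 other probe sets matched it together with FGF7P3 and FGF7P6, and their differences ran from 0.092 to 0.26.

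FGF10, the branching factor of the embryonic lung, had 5.46, 5.40 and 5.31 after oncostatin M, against 5.48, 5.32 and 5.44 in control (probe set 8111993), and the groups overlapped (difference -0.03, 95% interval from -0.21 to 0.15, adjusted p = 0.976, limma). To judge such low values, 409 olfactory receptor and keratin-associated protein genes, which fibroblasts are thought not to express, served as a rough background, although probe sets differ in brightness and not all of the 409 need be silent. Their percentile of 95 lay at 6.77 after oncostatin M and 6.74 in control. FGF10 lay below it, at the level of 75.6% and 76.8% of these genes, so these arrays do not tell whether it was expressed, nor do they bound a change in it.

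**Figure D2:**
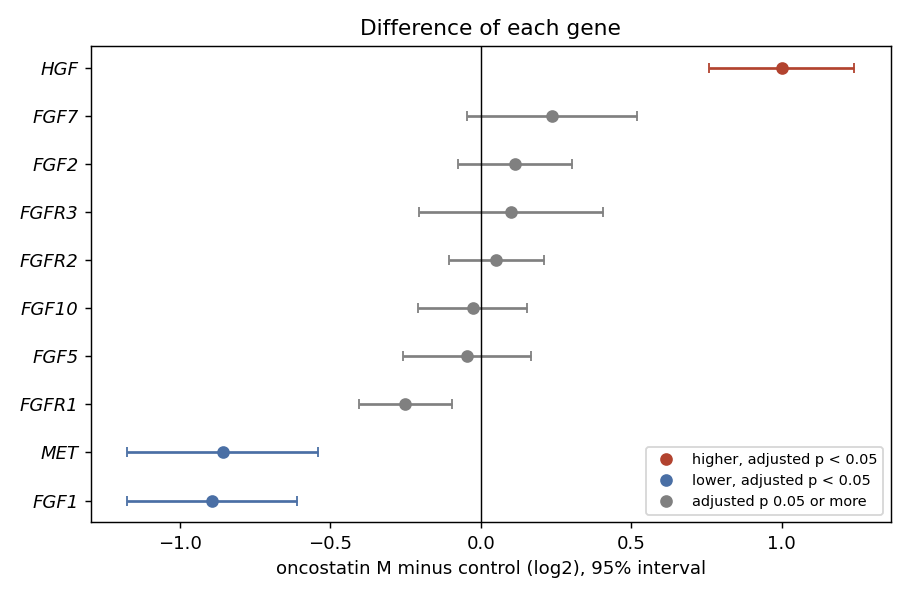
Log2 difference of each gene (oncostatin M minus control) and its 95% interval from limma, sorted by size. HGF lies at 1.00 and MET and FGF1 at -0.86 and -0.89, and of the genes that did not pass, FGFR1 has an interval that leaves out 0.

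Among the FGF receptors, FGFR1, the main FGF receptor of mesenchymal cells, had 10.08, 10.09 and 10.13 after oncostatin M, against 10.31, 10.40 and 10.33 in control (probe set 8150318). Both groups were tight and did not overlap. The difference was small, -0.25 (SE 0.067, 95% interval from -0.40 to -0.10), and did not pass over all genes (unadjusted p = 0.00567, adjusted p = 0.112, limma). It passed with a variance prior that follows the level (adjusted p = 0.0324) and with array weights (0.0463), and in none of the 6 fits that left out 1 array (0.132 to 0.338).

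FGFR2, whose epithelial and mesenchymal splice forms the single probe set cannot tell apart, had 5.42, 5.38 and 5.37 after oncostatin M, against 5.33, 5.40 and 5.28 in control (probe set 7936734; adjusted p = 0.931, limma). As with FGF10, these values lay inside the range of the 409 background genes. FGFR3, a receptor best known for restraining bone growth, had 7.21, 6.66 and 6.85 after oncostatin M, against 6.86, 6.85 and 6.71 in control (probe set 8093518). Its difference was 0.10 (95% interval from -0.20 to 0.41, adjusted p = 0.929, limma), oncostatin M 1 was the highest array, and both means lay near the percentile of 95 of the background genes.

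**Figure D3:**
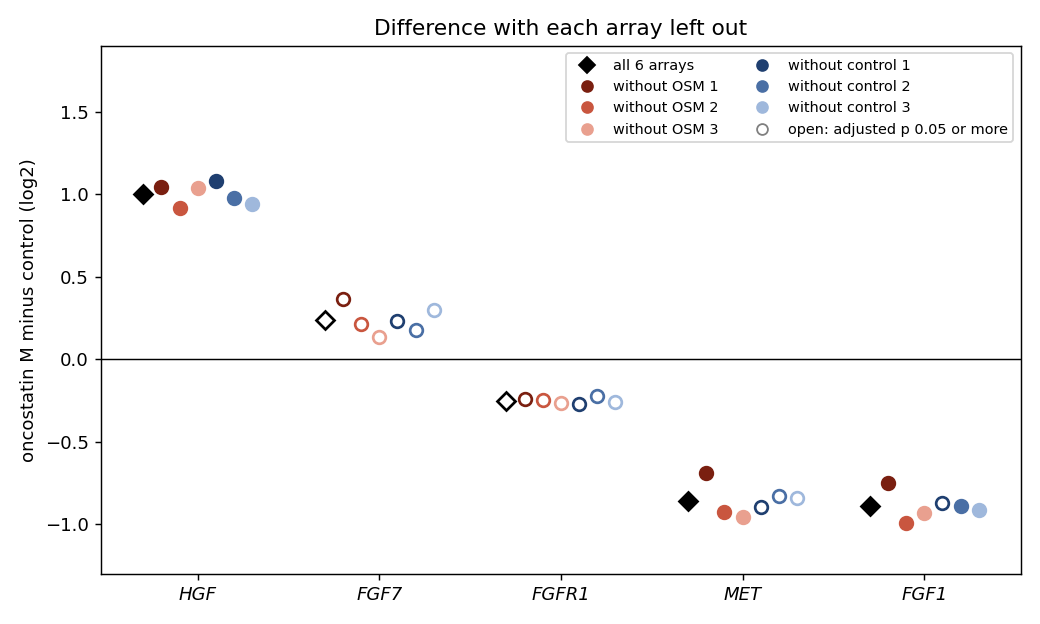
Difference, oncostatin M minus control (log2), of 5 genes with all 6 arrays (diamonds) and with each array left out (circles); filled symbols have an adjusted p under 0.05. HGF stayed filled in all fits, MET was open without each control array, FGF1 was open without control 1, and FGF7 and FGFR1 were open throughout.

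The other genes of the pathways were taken from 6 lists, also chosen with earlier results of these data known. The lists held 86 genes, of which 78 were analysed here. Of these, 6 were higher and 6 lower past the same threshold, where 1.72% of all genes were higher and 1.7% lower, and the counts of each list below stand against the same shares. Among 11 genes that cleave the HGF precursor, inhibit that cleavage or encode the related ligand MST1 and its receptor MST1R, 1 was higher and none lower (median 0.022). PLAT, tissue plasminogen activator, a protease reported to activate HGF, had 12.41, 12.36 and 12.21 after oncostatin M, against 11.74, 11.80 and 11.68 in control (difference 0.58, adjusted p = 0.00626, limma). That call was lost by a narrow margin without control 1 (adjusted p = 0.0502). PLAU, urokinase, another plasminogen activator, had means of 11.84 ± 0.12 after oncostatin M and 11.92 ± 0.07 in control (SD, n = 3 each, adjusted p = 0.873, limma). Only PLAT and PLAU lay well above the background range. F12, HPN, KLKB1, ST14, SPINT2, MST1 and MST1R lay inside it, and HGFAC and SPINT1 barely above it. For the genes inside it, these arrays do not tell whether they were expressed, nor bound a change in them.

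None of the 17 other FGF ligands passed (median 0.012, differences from -0.14 to 0.38). FGF4 and FGF8, the members of that list with the highest mean levels, differed by 0.04 and 0.13 (adjusted p = 0.973 and 0.929, limma). FGF4 lay at the level of 97.3% of the background genes in both groups. FGF8 lay at 96.6% after oncostatin M and 96.1% in control. Most of the list lay inside the background range, where these arrays do not tell whether a gene was expressed, nor bound a change in it. Among 10 other FGF receptors, co-receptors and binding proteins, 1 was higher and none lower (median 0.059). It was FLRT3, a transmembrane protein that binds FGF receptors and enhances FGF signalling in Xenopus. FLRT3 had 9.02, 9.35 and 9.30 after oncostatin M, against 7.72, 7.59 and 7.79 in control, a 2.88-fold rise (difference 1.52, SE 0.10, adjusted p = 0.000322, limma). The groups stood far apart, and the call was kept in each of 6 fits without 1 array. FGFRL1, an FGF receptor that lacks the kinase domain, differed by 0.06 (adjusted p = 0.921, limma). Most other genes of this list, FGFR4, KL and KLB among them, lay inside the background range.

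Heparan sulfate proteins, which hold FGFs and HGF at the cell surface, and the enzymes that edit their sulfation went both ways, with 3 of 12 higher and 1 lower (median 0.10). SULF1, a secreted sulfatase that removes sulfate from heparan sulfate chains, had 11.55, 11.66 and 11.56 after oncostatin M, against 10.03, 10.00 and 9.86 in control, a 3.10-fold rise (difference 1.63, SE 0.08, adjusted p = 6.7e-05, limma). The related SULF2 rose by 0.47 (adjusted p = 0.0353), with its control mean of 6.32 inside the background range, so its size is uncertain. The glypican GPC6 rose by 0.58 (adjusted p = 0.00453), and HSPG2, which encodes the basement membrane proteoglycan perlecan, fell by 0.36 (adjusted p = 0.0332). SULF1 and GPC6 kept their calls in 6 of 6 fits without 1 array, SULF2 in 2 and HSPG2 in 1. GPC2, GPC3 and GPC5, which did not pass, lay inside the background range, so a change in them is not bounded.

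**Figure D4:**
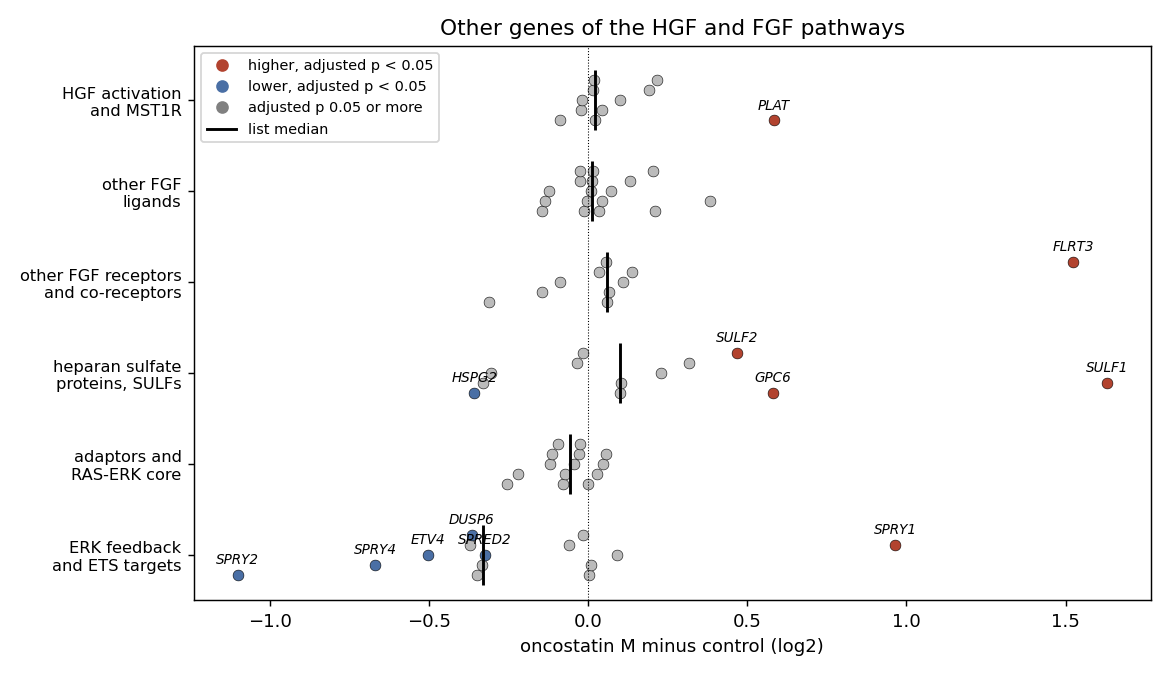
Difference, oncostatin M minus control (log2), of the 78 analysed genes of 6 pathway lists, 1 point per gene, with the list median as a black bar. SULF1, FLRT3, SPRY1, GPC6, PLAT and SULF2 are the named points to the right, SPRY2, SPRY4, ETV4, DUSP6, HSPG2 and SPRED2 those to the left, and no point of the other FGF ligands or of the adaptors and RAS-ERK core is coloured.

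Of 14 adaptors and core kinases of the RAS and ERK cascade, none passed (median -0.058). SHC1 and PTPN11, an adaptor and a phosphatase that act just below MET and the FGF receptors, differed by 0.05 and -0.07 (adjusted p = 0.938 and 0.882, limma). Feedback inhibitors and ETS factors, which FGF signalling through ERK is known to induce, had 5 of 14 members lower, 1 higher and 8 that did not pass, with a list median of -0.33. Of those 8, DUSP4 and SPRY3 lay inside the background range. For these genes the arrays do not tell whether they were expressed, nor bound a change in them. SPRY2 and SPRY4, Sprouty inhibitors of receptor tyrosine kinases, were lower by 2.14-fold and 1.59-fold. Their relative SPRY1 rose 1.95-fold: it had 8.88, 8.83 and 8.66 after oncostatin M, against 7.87, 8.04 and 7.58 in control (adjusted p = 0.00415, limma). These 3 Sprouty genes kept their calls in each of 6 fits without 1 array. The ERK phosphatase DUSP6 fell by 0.37 (adjusted p = 0.0255), the ETS factor ETV4 by 0.50 (0.0343) and SPRED2, named here after its value was seen as the remaining gene of the count, by 0.32 (0.0352). Of 6 fits without 1 array, DUSP6 kept its call in 1, ETV4 in 2 and SPRED2 in 1.

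The genes whose 6 array values, after subtraction of each gene's mean, lay closest to those of HGF were IFI30, SLC44A3 and MUC1, with root mean square differences of 0.071, 0.090 and 0.092 on the log2 scale over 6 arrays. IFI30, a lysosomal thiol reductase, had means of 8.32 ± 0.11 after oncostatin M and 7.42 ± 0.08 in control (SD, n = 3 each). The closest to FGF1 were HDAC9, KCNMA1 and FRMD6, at 0.044, 0.092 and 0.095. HDAC9, a histone deacetylase, had 5.11, 5.49 and 5.40 after oncostatin M, against 6.29, 6.17 and 6.18 in control, so it had the same low oncostatin M 1 array as FGF1, but all of its values lay inside the background range. KCNMA1, a potassium channel gene, and FRMD6 had differences of -0.85 and -0.96.

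The labels were checked with genes outside the set. SOCS3, which restrains cytokine signalling and is a known target of STAT3, was higher by 2.06 after oncostatin M, and the receptor gene OSMR by 0.82. All 10 fibroblast markers lay above the background range in both groups, with means of at least 10.70 after oncostatin M and 9.95 in control, 2 of them higher and 1 lower. Of 8 lung epithelial markers, 1 was higher, MUC1, with 8.45, 8.64 and 8.29 after oncostatin M, against 7.43, 7.27 and 7.32 in control. The other 7, among them EPCAM, CDH1 and SFTPC, lay inside the background range, and the summed levels of the 8 ran from 45.4 to 48.3 after oncostatin M and from 45.3 to 45.8 in control. No endothelial marker (7 measured) and no leukocyte marker (6 measured) passed, and of these only CLDN5, TEK and CD68 lay above the background range in both groups. Oncostatin M 1 differed most from the other arrays of its group, by a root mean square of 0.25 over all genes, against 0.13 to 0.17 for the other 5 arrays.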

How the data were processed

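Total RNA of 3 oncostatin M and 3 control samples of IMR90 cells was measured, 1 array each. The authors deposited log2 values, 1 per probe set and array. The submitters' processing notes name RMA and Affymetrix Expression Console, version 1.1, and no settings or genome build are given in the sources used here. RMA normalizes between arrays, so changes are relative to other genes, and it tends to shrink differences of dim probe sets. Array medians ran from 6.54 to 6.66. The number of arrays limits the precision.

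Of 33297 probe sets, 19460 had 1 gene symbol, 1754 several and 12083 none in the platform's gene table. Where a gene had several probe sets, the brightest on average was kept, which left 18417 genes. They were tested in limma (version 3.58.1, under R 4.3.3), with group as the only term, two-sided moderated tests and Benjamini-Hochberg adjustment over all genes at a threshold of 0.05. No filter on dim genes was used. The model was tested on simulated arrays, with noise drawn independently for each gene and array. It recovered 60% of changes of 0.5 on the log2 scale, 94% of changes of 1 and 100% of changes of 2. Of its calls, 6.45% were false. A gene that did not pass may thus still have changed by about 0.5. The simulation held no array that deviated over many genes, as oncostatin M 1 did. Figures were drawn with matplotlib 3.10.9. Members, lists and tests were chosen with earlier results of these data known. All members are named. Of each list, up to 5 genes past the threshold with the largest change are named, and where fewer than 2 passed, also the genes with the highest mean level. For HGF and FGF1, the members with the largest difference, the 3 nearest patterns are named. Alternatives covered normalization, probe set choice, dim-gene filters, the variance prior, a replicate block, array weights, omission of each array and a threshold of 0.01.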

Additional observations from a re-analysis of the deposited data

How the results depend on the processing

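HGF passed under each of the 16 alternatives, and HGF, MET and FGF1 kept their directions. Their differences could not change with probe set choice, dim-gene filters, the variance prior, the replicate block or the threshold of 0.01. Direction was thus tested only by normalization, array weights and omission of each array. Among the 10 genes, 2 were higher with array weights, where FGF7 joined HGF. With a threshold of 0.01, 1 was lower, FGF1. With each array left out in turn, the count of lower genes ran from 0 (without control 1) to 2. In the pathway lists, 10 genes were lower with array weights and 2 with a threshold of 0.01, against 6, and 2 to 6 with each array left out, with 2 without control 1, control 2, oncostatin M 2 or oncostatin M 3 and 3 without control 3.

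With so few arrays per group, deviations from the group means could not settle whether replicate numbers pair the samples. Same-numbered deviations correlated at 0.064, -0.46 and 0.51, and differently numbered ones from -0.60 to 0.54. With the replicate block, HGF, MET and FGF1 passed (adjusted p = 0.0134, 0.0199 and 0.0251, limma), and 2 pathway genes were lower, SPRY2 and SPRY4, while HSPG2, ETV4, DUSP6 and SPRED2 no longer passed. Counts over all genes fell as well, to 255 higher and 223 lower with the block, against 316 and 314 without it.

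Over all genes, 316 were higher and 314 lower, against 667 and 610 with array weights, 175 and 112 with a threshold of 0.01, 156 and 105 without control 1, 188 and 127 without control 2, 216 and 136 without control 3, and 217 and 179 without oncostatin M 2. The counts were 252 and 234 without oncostatin M 3, and they rose to 400 and 332 without oncostatin M 1. All fits without an array rest on fewer samples, and the cause of these shifts was not tested. Dim genes such as FGF10 and FGFR2 are limited by signal over background.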

Other observations

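Some pathway genes had groups that did not overlap but missed the threshold over all genes. Groups did not overlap for 18.0% of all genes, whether or not they passed. ETV1 and ETV5, ETS factors related to ETV4, were lower by similar amounts, with differences of -0.33 and -0.37 (adjusted p = 0.113 and 0.0813, limma), and SPRED1, a relative of SPRED2, differed by -0.35 (adjusted p = 0.0925). ETV5 had 8.71, 9.02 and 8.91 after oncostatin M, against 9.27, 9.21 and 9.26 in control. The syndecans SDC2 and SDC3, heparan sulfate proteins of the cell surface, differed by -0.33 and -0.31 (adjusted p = 0.124 and 0.0593). FGF14, an intracellular relative of the FGFs, differed by 0.38 (adjusted p = 0.0638), with both means in the background range. These genes were chosen after their values were seen, and they are a part of those with such groups. F12, SPINT2, FGF18 and GPC4 also lay higher on all treated arrays without passing, the first 3 with both means in the background range. FLRT2, MAP2K1, GRB2 and PLCG1 lay lower without passing. FLRT2, a relative of FLRT3, differed by -0.31 (adjusted p = 0.411, limma), opposite in direction to FLRT3.

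The probe sets that FGF7 shares with its pseudogenes gave a pattern like that of its own probe set. The one with the highest level (8067839) had 8.93, 9.54 and 9.53 after oncostatin M, against 9.29, 8.84 and 9.24 in control. On it, too, oncostatin M 1 lay below the other treated arrays, and the groups overlapped. Of the 6 shared probe sets, 3 held identical values on every array, so they are not independent readings.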
